A study of Mus musculus with 5 samples.

Results

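The cytokine genes examined here are those of tumour necrosis factor and of the IL-6, IL-10 and IL-12 families (IL stands for interleukin), 10 genes in all: Tnf, Il6, Lif, Osm, Csf3, Il10, Il12a, Il12b, Il23a and Il27. Array spots were assigned to them through the RefSeq transcript that each spot was designed on. A single probe was found for each of 9 genes, no probe was matched to Il12b, and Il12b is therefore only named. Of the 9 genes, 8 were bright enough to be tested among 27938 genes in all, and 5 were well above background on every array.

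The arrays came from peritoneal macrophages of 8 week old mice on a mixed 129/C57Bl6 background. There were 2 mice with floxed c-Jun alleles and LysM-Cre, here called c-Jun-deleted (numbers 1 and 9), and 3 littermate wild-type mice without a deletion (numbers 5, 11 and 14). LysM-Cre is a recombinase placed in the lysozyme gene Lyz2 and acts mainly in myeloid cells, among them macrophages and neutrophils. Lymphocytes of the lavage are not its intended targets. Source names of the c-Jun-deleted samples read c-JunΔMx instead of c-JunΔLysM. Lavage cells of both genotypes were cultured overnight, only those that stuck to the dish were used, and no stimulus is named. The design text counts the samples as separate mice.

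Tumour necrosis factor is released by activated macrophages after cleavage from the cell surface, and it acts through the receptors encoded by Tnfrsf1a and Tnfrsf1b. IL-6, leukaemia inhibitory factor and oncostatin M signal through receptors that contain gp130, the product of Il6st, and granulocyte colony-stimulating factor, encoded by Csf3, drives the production of neutrophils. IL-10 restrains macrophage activation through STAT3. The IL-12 family consists of paired chains: p35 (Il12a) or p19 (Il23a) with the shared p40 chain (Il12b), and p28 (Il27) with the product of Ebi3. Transcription of many of these genes is induced by NF-kB and AP-1, and c-Jun is a subunit of AP-1.

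Upstream sequences are shown for the 3 genes in which a searched motif was found, to place any AP-1 motif beside the expression values. The RefSeq promoter table (GRCm38.p6) matched 5 of the 10 genes: Tnf, Il6, Lif, Il12a and Il12b. Osm, Csf3, Il10, Il23a and Il27 are named only. Each sequence below is the 250 bases before the gene's start, read 5′ to 3′ on the gene's strand, with motif matches in capitals.
Il6, chr5:30012864-30013113, plus strand: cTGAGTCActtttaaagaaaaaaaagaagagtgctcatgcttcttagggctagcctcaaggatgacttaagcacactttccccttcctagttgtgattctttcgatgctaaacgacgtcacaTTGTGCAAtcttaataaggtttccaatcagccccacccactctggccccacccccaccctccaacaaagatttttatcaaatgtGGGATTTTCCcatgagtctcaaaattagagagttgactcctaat
Lif, chr11:4257318-4257567, plus strand: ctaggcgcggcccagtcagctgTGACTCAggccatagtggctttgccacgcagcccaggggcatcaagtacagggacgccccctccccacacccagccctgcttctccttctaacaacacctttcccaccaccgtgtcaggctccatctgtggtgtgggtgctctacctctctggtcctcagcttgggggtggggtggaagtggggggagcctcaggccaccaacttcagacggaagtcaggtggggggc
Tnf, chr17:35202008-35202257, minus strand: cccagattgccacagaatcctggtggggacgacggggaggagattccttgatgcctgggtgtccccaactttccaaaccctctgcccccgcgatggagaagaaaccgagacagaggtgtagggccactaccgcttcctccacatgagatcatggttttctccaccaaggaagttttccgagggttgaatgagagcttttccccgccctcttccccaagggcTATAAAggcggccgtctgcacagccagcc

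The motifs searched were TGANTCA for AP-1, TGACGTCA for the cyclic AMP response element, GGGA and TTCC with any 2 bases between them for NF-kB and TTGCNNAA for C/EBP, each on both strands, and TATAAA for the TATA box on the gene's strand. In Il6 the AP-1 match TGAGTCA began 249 bases before the start, the C/EBP match 128 bases and the NF-kB match 44 bases before it. In Lif an AP-1 match, TGACTCA, began 228 bases before the start, and in Tnf only the TATA box was found, 29 bases before it. None of the 5 motifs was found in the windows of Il12a and Il12b. No matches overlapped. Among 32841 promoter windows of the same length, 6.75% held the AP-1 motif, 1.55% the cyclic AMP element, 1.21% the NF-kB motif, 9.57% the C/EBP motif and 7.59% the TATA box. These matches describe letters and do not show that a factor binds there.

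A level below is the log2 of a probe's processed signal after division by the signal that 75% of the spots on the same array did not exceed, and a difference is c-Jun-deleted minus wild-type. On each array 52.1% to 59.9% of the probes were rated well above background, and no probe was saturated. The 12 macrophage markers examined were well above background on every array, although Lyz2, the gene that carries the Cre allele, was at 4.46 and 8.52 in c-Jun-deleted 1 and 9, against 8.70 to 9.18 in wild-type. The labels allow mice of either sex: wild-type 11 alone had Ddx3y well above background (1.35) and had Xist at -4.53, where Xist was between -0.04 and 0.74 on the other 4 arrays. Wild-type 11 also stood apart in Ccr2, a monocyte marker, at 3.14 against -0.69 to 0.58 on the other arrays, and in Timd4, a marker of resident macrophages, at 1.47 against 4.11 to 4.83. Without it the differences given below were -0.16 for Tnf, -0.85 for Il6, -1.28 for Csf3, -0.23 for Osm, -0.12 for Lif, 0.52 for Il10, 1.48 for Il12a and -0.21 for Il27. The arrays lay on 2 slides: slide 1 held c-Jun-deleted 1 and wild-type 5, and slide 2 held c-Jun-deleted 9, wild-type 11 and wild-type 14. Jun itself was at 2.76 and 2.71 in c-Jun-deleted and at 3.21, 3.75 and 3.17 in wild-type macrophages, a difference of -0.64 (limma adjusted p = 0.391). The groups did not overlap for Jun, and whether its probe lies in the deleted stretch is not known here.

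None of the 8 cytokine genes tested passed the threshold. Benjamini-Hochberg adjusted p-values from limma over all genes lay between 0.408 and 0.985, and 0 of 8 genes were below 0.05, beside 0% of all genes tested. At an unadjusted p below 0.05 there was 1 gene, Il12a, which was higher and had 2 of its 3 wild-type values below the detection line; 12.2% of all genes passed that line, and 5.63% passed it in the higher direction. The difference was below 0 for 5 of the 8 genes and above 0 for 3, with a median of -0.30, and over all genes 61.4% were below 0 and 38.6% above it, with a median of -0.09. Groups did not overlap for Il27, which was lower, and for Il12a, which was higher; over all genes this held for 20.2% in the lower and 13.3% in the higher direction, 33.5% in all. For all 8 genes the range among the wild-type arrays alone was larger than the difference between genotypes, as it was for 73.4% of all genes.

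**Figure D1:**
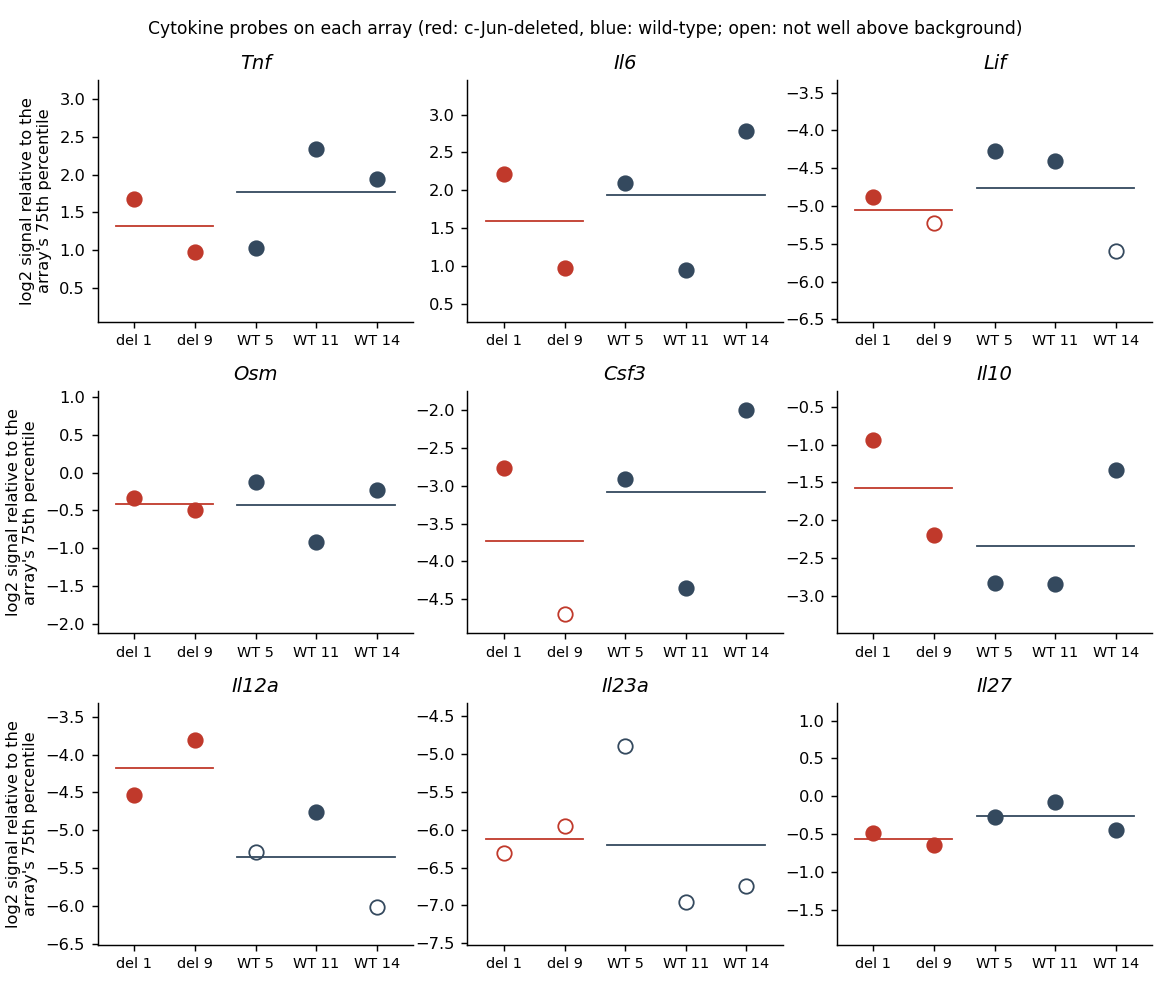
Level of each matched cytokine probe (y axis, log2 relative to the array's 75th percentile signal) on the c-Jun-deleted (del 1 and 9, red) and wild-type (WT 5, 11 and 14, blue) arrays. Lines are group means, and open circles are spots not well above background; only Il27 and Il12a, among the 8 genes tested, had groups that did not overlap.

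Tnf, the founding member of its family, was at 1.68 and 0.97 in c-Jun-deleted macrophages 1 and 9, against 1.03, 2.34 and 1.94 in wild-type macrophages 5, 11 and 14. Wild-type 11 was highest and c-Jun-deleted 9 lowest, with wild-type 5 next to it and c-Jun-deleted 1 in the middle, so the groups overlapped. Means were 1.33 ± 0.50 (SD, n = 2) in c-Jun-deleted and 1.77 ± 0.67 (SD, n = 3) in wild-type macrophages, a difference of -0.45 (SE 0.46, limma adjusted p = 0.704). The 95% interval of that difference ran from -1.66 to 0.76. Within slide 1 the difference was 0.65 and within slide 2 it was -1.17, so the slides gave opposite directions. With single arrays left out it ran from -0.82 without wild-type 5 to -0.09 without c-Jun-deleted 9, and with array weights it was -0.06.

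The Tnf probe was spotted 10 times on each array. Spots of the same array share RNA, labelling and hybridization, so their spread measures spot noise only; it had SDs between 0.0344 and 0.0881, with 1 outlying spot left out on wild-type 5 and on wild-type 14. The array and labelling error was not measured, and it is part of the spread between samples. The lowest spot of wild-type 11, at 2.30, lay above the highest spots of c-Jun-deleted 1 (1.73), c-Jun-deleted 9 (1.16) and wild-type 5 (1.12).

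**Figure D2:**
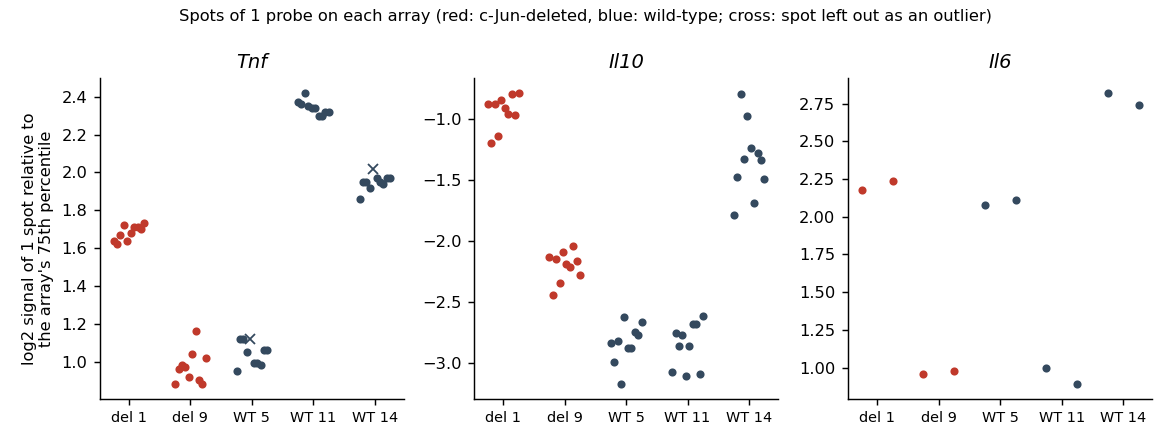
Level of each single spot (y axis, log2 relative to the array's 75th percentile signal) of the Tnf, Il10 and Il6 probes on the c-Jun-deleted (red) and wild-type (blue) arrays, with outlying spots as crosses. For Tnf, spots of 1 array lie close together, while wild-type 5 and 11 lie far apart (means 1.03 and 2.34). For Il10 the spots of wild-type 14 run from -1.79 to -0.80, and wild-type 5 and 11 are nearly equal (means -2.83 and -2.85).

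Il6, which encodes the acute inflammatory cytokine IL-6, was at 2.21 and 0.97 in c-Jun-deleted macrophages 1 and 9, against 2.10, 0.94 and 2.78 in wild-type macrophages 5, 11 and 14. Both genotypes held a low array, c-Jun-deleted 9 and wild-type 11, and the highest and lowest values were both wild-type. The difference was -0.35 (SE 0.67, limma adjusted p = 0.849), with an interval from -2.10 to 1.39, and it was 0.11 within slide 1 and -0.89 within slide 2. Without c-Jun-deleted 9 it was 0.27, and without wild-type 14 it was 0.07. Il6 varied 3.57-fold among the wild-type arrays.

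Csf3, which encodes granulocyte colony-stimulating factor, was at -2.77 and -4.70 in c-Jun-deleted macrophages 1 and 9, against -2.91, -4.35 and -2.00 in wild-type macrophages 5, 11 and 14. Its signal was not well above background on c-Jun-deleted 9. The difference was -0.65 (SE 0.91, limma adjusted p = 0.785), and it was 0.14 within slide 1, -1.53 within slide 2 and 0.31 without c-Jun-deleted 9. Csf3 had the widest range of the 8 genes tested, 6.53-fold over the 5 arrays and 5.09-fold within wild-type.

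Oncostatin M, the product of Osm, is made by activated macrophages and neutrophils. Osm was at -0.33 and -0.49 in c-Jun-deleted macrophages 1 and 9, against -0.13, -0.92 and -0.23 in wild-type macrophages 5, 11 and 14, so that both c-Jun-deleted values lay inside the wild-type range. The difference was 0.02 (SE 0.29, limma adjusted p = 0.985), with an interval from -0.73 to 0.76, and it was -0.19 within slide 1 and 0.08 within slide 2. An interval of this width does not show that the genotypes were alike.

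Lif, which encodes leukaemia inhibitory factor, was near the detection limit, at -4.88 and -5.22 in c-Jun-deleted macrophages 1 and 9, against -4.27, -4.41 and -5.59 in wild-type macrophages 5, 11 and 14. Only c-Jun-deleted 1, wild-type 5 and wild-type 11 gave a signal well above background. The difference was -0.29 (SE 0.46, limma adjusted p = 0.811), and it was -0.60 within slide 1 and -0.22 within slide 2. With single arrays left out it ran from -0.71 without wild-type 14 to -0.05 without wild-type 5.

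Il10 was at -0.94 and -2.20 in c-Jun-deleted macrophages 1 and 9, against -2.83, -2.85 and -1.34 in wild-type macrophages 5, 11 and 14. The highest value was that of c-Jun-deleted 1, but wild-type 14 lay above c-Jun-deleted 9, and wild-type 5 and 11 were nearly equal. The difference was 0.77 (SE 0.64, limma adjusted p = 0.639), a mean 1.71-fold higher in c-Jun-deleted macrophages, with an interval from -0.91 to 2.45. Within slide 1 it was 1.90 and within slide 2 it was -0.11, and without c-Jun-deleted 1 it was 0.14. The 10 spots of the Il10 probe had SDs between 0.12 and 0.297 on an array, which is spot noise only.

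Peritoneal B-1 cells, a class of B lymphocytes, are known as a source of IL-10, and B cell markers differed between these samples. All 14 B cell markers examined were higher in c-Jun-deleted macrophages, beside 38.6% of all genes, each without overlap, beside 13.3%. Of the 14, 0 passed limma's adjusted threshold, with a lowest adjusted p of 0.212, and 10 passed it with the arrays centred on their medians. These markers had a median difference of 2.49, and 13 of them were well above background on every array. Their summed signal, in multiples of the array's 75th percentile signal, was 343 and 496 in c-Jun-deleted macrophages 1 and 9, against 102, 81.4 and 52.4 in wild-type macrophages 5, 11 and 14. The arrays were ordered otherwise for Il10: wild-type 14 had the lowest B cell sum and an Il10 level of -1.34, exceeded only on c-Jun-deleted 1. The highest sum was that of c-Jun-deleted 9, whose Il10 level (-2.20) lay below that of wild-type 14. The part of B cells in the Il10 values was not tested. In mixed cells a change in the number of cells of a type and a change in RNA per cell cannot be told apart.

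Il12a, which encodes the p35 chain of IL-12 and is dim in these cells, was at -4.54 and -3.81 in c-Jun-deleted macrophages 1 and 9, against -5.29, -4.76 and -6.02 in wild-type macrophages 5, 11 and 14. Both c-Jun-deleted values lay above all wild-type values, of which only that of wild-type 11 was well above background. Il12a passed the filter on dim probes through the c-Jun-deleted arrays, where it is high, and the size of its difference rests on wild-type signals that were mostly not above background (12.1, 16.9 and 7.43). The fitted difference was 1.18 (SE 0.45, limma adjusted p = 0.408). It was 0.76 within slide 1 and 1.58 within slide 2. Normexp background correction was run with an offset of 50 added to every signal. After it the difference was 0.40 with quantile scaling and 0.24 with the 75th percentile, where the groups overlapped. The B cell sums were also higher in both c-Jun-deleted samples and highest, as Il12a was, in c-Jun-deleted 9, and their part in the Il12a values was not tested.

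Il27, which encodes the p28 chain of IL-27, was at -0.48 and -0.65 in c-Jun-deleted macrophages 1 and 9, against -0.27, -0.08 and -0.44 in wild-type macrophages 5, 11 and 14. Every wild-type value lay above both c-Jun-deleted values, but the gap between wild-type 14 and c-Jun-deleted 1 was small. The difference was -0.30 (SE 0.17, limma adjusted p = 0.519), 1.23-fold lower on average, with an interval from -0.76 to 0.15. It was -0.20 within slide 1, -0.39 within slide 2 and -0.09 with the arrays centred on their medians, where the groups overlapped. Ebi3, whose product pairs with p28, was at 4.73 and 4.48 in c-Jun-deleted macrophages and at 4.81, 4.77 and 5.05 in wild-type macrophages, a difference of -0.27 (SE 0.17, limma adjusted p = 0.550). Ebi3 is named after its values were seen.

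Il23a, which encodes the p19 chain of IL-23, gave no signal well above background on these arrays. Its signals were 7.57 and 7.09 in c-Jun-deleted macrophages 1 and 9, against 16.0, 3.70 and 4.50 in wild-type macrophages 5, 11 and 14. The dimmest signals rated well above background on these arrays, in the same order, were 10.7 and 19.1 in c-Jun-deleted and 16.5, 14.4 and 17.3 in wild-type macrophages. No fold change is given, since neither genotype had a measured level.

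**Figure D3:**
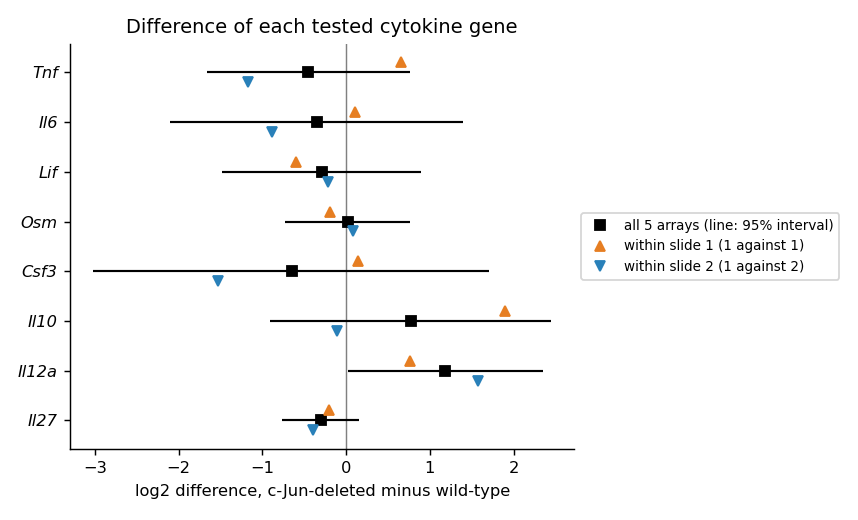
Log2 difference, c-Jun-deleted minus wild-type, of the 8 cytokine genes tested (x axis), as squares with 95% intervals from limma, and within each slide as triangles. All intervals but that of Il12a (0.02 to 2.35), detected on 1 of 3 wild-type arrays, include 0, and for Tnf, Il6, Osm, Csf3 and Il10 the slides give opposite signs.

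Most of the 8 genes, but not Il27, varied more between wild-type mice than the median gene did. Lif, Csf3 and Il12a had signals not well above background on some arrays, and their spread within a genotype rests in part on these. The range among the wild-type arrays was at least 2-fold for 6 of the 8 genes, beside 22.4% of all genes tested. Its median was 1.31 in log2, beside 0.46 over all genes, and for Il27 it was 0.36. The c-Jun-deleted arrays differed from each other by a median of 0.72, beside 0.25 over all genes, but by only 0.17 for Osm and 0.18 for Il27. For 7 of the 8 genes, all but Il12a, c-Jun-deleted 9 was below c-Jun-deleted 1, beside 49% of all genes. Relative to the wild-type mean, the median of the 8 genes was 0.18 and -0.43 for c-Jun-deleted 1 and 9, against 0.11, -0.15 and 0.18 for wild-type 5, 11 and 14. These counts are descriptions, and the genes were chosen with earlier results of these arrays known.

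Likeness between genes was measured as the root mean square distance of their levels over the 5 arrays, each gene centred on its own mean. Among 28 pairs the median distance was 0.85, and the closest pair was Il6 and Csf3, at 0.31. Both genes were highest on wild-type 14, followed by c-Jun-deleted 1 and wild-type 5, and low on c-Jun-deleted 9 and wild-type 11. Osm was lowest on wild-type 11 as well, at a distance of 0.53 from Il6. Tnf ran otherwise: it was highest on wild-type 11, where Il6 was lowest, and lay 0.88 from Il6. The most distant pair was Csf3 and Il12a, at 1.68. Csf3 was not well above background on c-Jun-deleted 9, nor Il12a on wild-type 5 and 14. Distances of these genes, and those of Lif, rest in part on such signals.

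**Figure D4:**
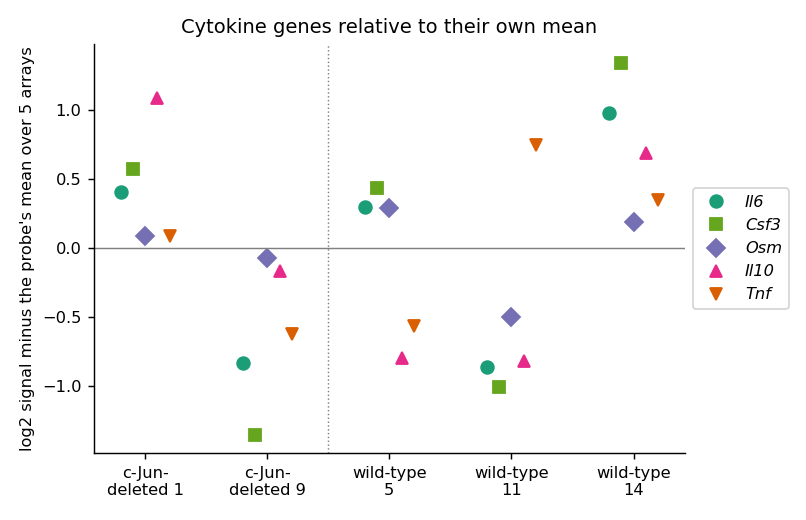
Level of Il6, Csf3, Osm, Il10 and Tnf on each array (x axis), as log2 minus the probe's own mean over the 5 arrays (y axis), with c-Jun-deleted left of the dotted line and wild-type right of it. Il6 and Csf3 are high on c-Jun-deleted 1, wild-type 5 and wild-type 14 and low on c-Jun-deleted 9 and wild-type 11, whereas Tnf is highest on wild-type 11.

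Over all named genes, the 3 nearest to Tnf by that distance were Cnga3 (0.054), Vmn2r49 (0.074) and Lrrc32 (0.080). Those nearest to Il6 were Meig1 (0.11), Rps4l (0.13) and Vcan (0.14), and those nearest to Il10 were Prss16 (0.23), Me1 (0.29) and Nqo1 (0.29). Osm was nearest to Rom1 (0.034), Ampd2 (0.041) and Snx11 (0.041), and Il27 to Col9a2 (0.035), Gucy2d (0.036) and Pax3 (0.038). With 5 arrays many genes match a flat pattern by this measure. Among all 27938 genes tested, unnamed probes included, 153 lay within 0.1 of Osm and 305 within 0.1 of Il27. Only 3 lay within 0.1 of Tnf and 0 within 0.1 of Il6 or Il10.

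Receptors for these cytokines were tested as 13 genes, and 0 passed limma's adjusted threshold. Of these, 9 were lower and 4 higher, 3 lower and 2 higher without overlap, with a median difference of -0.29. These counts stand beside 61.4% lower, 20.2% lower without overlap and 13.3% higher without overlap over all genes, and with the arrays centred on their medians 7 were lower, 0 of them without overlap, with a median of -0.08. Il10ra, the ligand-binding chain of the IL-10 receptor, was at 4.31 and 4.41 in c-Jun-deleted macrophages, against 4.70, 4.80 and 4.64 in wild-type macrophages, a difference of -0.35 (SE 0.14). Tnfrsf1b, a tumour necrosis factor receptor of immune cells, was at 2.85 and 2.73 in c-Jun-deleted macrophages and at 2.96, 3.57 and 2.98 in wild-type macrophages (-0.38, SE 0.24). On the other side stood Il27ra, the specific chain of the IL-27 receptor, at 0.82 and 1.00 in c-Jun-deleted macrophages, against 0.46, 0.25 and -0.28 in wild-type macrophages (0.76, SE 0.26). Lifr, the receptor chain for leukaemia inhibitory factor, was at 1.02 and 1.16 against 0.95, 0.23 and 0.54 in wild-type macrophages (0.52, SE 0.25). Limma's adjusted p was 0.417 for Il10ra, 0.549 for Tnfrsf1b, 0.377 for Il27ra and 0.466 for Lifr.

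Among 13 other cytokines of the same families 10 were tested, and 5 of these were higher without overlap, beside 13.3% of all genes, and 1 was lower without overlap, beside 20.2%, with a median difference of 0.10. Clcf1, a gp130 ligand known as a B cell stimulating factor, was at -0.15 and 0.36 in c-Jun-deleted macrophages, against -1.52, -1.24 and -1.71 in wild-type macrophages. Its difference of 1.59 (SE 0.24) had a limma adjusted p of 0.219, and of 0.0482 with the arrays centred on their medians. Ltb, the lymphotoxin beta gene, which lymphocytes express, was at 4.75 and 5.41 against 3.04, 4.64 and 2.65 in wild-type macrophages (1.64, SE 0.66, limma adjusted p = 0.421). Il24, of the IL-10 family, was at -1.56 and -2.47 in c-Jun-deleted macrophages and at -2.52, -3.75 and -3.62 in wild-type macrophages (1.28, SE 0.50, limma adjusted p = 0.412). Cntf was at -0.71 and -0.56 in c-Jun-deleted macrophages and at -0.99, -0.79 and -1.03 in wild-type macrophages (0.31, SE 0.16, limma adjusted p = 0.480). The B cell sums given beside Il10 were higher in c-Jun-deleted macrophages, as Clcf1 and Ltb were. Over the 5 arrays Ltb had the order of the T and NK cell marker sums, 53.1 and 71.1 in c-Jun-deleted macrophages against 21.4, 42.6 and 16.0 in wild-type macrophages. That order rested on Cd2, the brightest gene of the list. Without Cd2 the sums were 19.7 and 27.6 against 10.4, 32.7 and 10.3, and wild-type 11 was highest. The part of these cells in the values was not tested.

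Of 13 genes for JAK kinases, STAT factors and their inhibitors, 9 were lower and 4 higher, and only Jak2, a kinase used by several of these receptors, was lower without overlap. Jak2 was at 3.34 and 3.23 in c-Jun-deleted macrophages, against 3.47, 3.68 and 4.24 in wild-type macrophages (-0.52, SE 0.27, limma adjusted p = 0.485). The median of this list was -0.16, and over all genes 61.4% were lower and 20.2% lower without overlap. With the arrays centred on their medians 6 of the 13 were lower, 0 without overlap, 2 were higher without overlap, and the median was 0.05. Of 16 tested genes known to respond to STAT3 in myeloid cells, 14 were lower, 8 of them without overlap, with a median of -0.43; the shares over all genes were 61.4% and 20.2%. Nfil3, a transcription factor induced by IL-10 in macrophages, was at 4.69 and 4.04 in c-Jun-deleted macrophages, against 6.17, 5.17 and 6.33 in wild-type macrophages (-1.52, SE 0.44, limma adjusted p = 0.314). Il4ra, a receptor chain for IL-4, was at 1.69 and 1.34 in c-Jun-deleted macrophages and at 3.06, 1.81 and 3.64 in wild-type macrophages (-1.32, SE 0.57, limma adjusted p = 0.438). Both genes had their lowest wild-type value on wild-type 11, as Il6, Csf3 and Osm did. Timp1, a protease inhibitor, was at 1.53 and 0.38 against 2.38, 1.64 and 2.43 in wild-type macrophages (-1.20, SE 0.45), and Cebpb, the C/EBP factor of inflammatory genes, was at 6.07 and 5.96 against 6.69, 6.30 and 6.88 (-0.61, SE 0.22). Limma's adjusted p was 0.400 for Timp1 and 0.392 for Cebpb. These 2 lists share Socs3, and the STAT3 list shares Tnfrsf1b with the receptors.

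Of 20 genes for release of tumour necrosis factor and signalling by its receptors, 18 were lower, 8 of them without overlap, and 1 was higher without overlap, with a median of -0.21. Over all genes 61.4% were lower, 20.2% lower without overlap and 13.3% higher without overlap. Adam17, the protease that cuts tumour necrosis factor from the membrane, was at -0.71 and -0.87 in c-Jun-deleted macrophages, against -0.29, -0.27 and -0.13 in wild-type macrophages (-0.56, SE 0.15, limma adjusted p = 0.295). Birc3 and Tnfaip3, which regulate ubiquitin on the receptor complex, each had a difference of -0.59 (SE 0.18 and 0.23, limma adjusted p = 0.340 and 0.418). Rhbdf1, a rhomboid-like protein that assists Adam17, was the higher gene, at 1.15 and 1.83 in c-Jun-deleted macrophages, against 0.93, -0.24 and 0.29 in wild-type macrophages (1.16, SE 0.42, limma adjusted p = 0.393). Of 12 regulators of cytokine mRNA decay 9 were lower, 4 of them without overlap, beside 61.4% and 20.2% of all genes, with a median of -0.17. Those 4 were Dusp1, the phosphatase of p38 and JNK (-0.50, SE 0.20), Mapkapk2, a kinase below p38 (-0.37, SE 0.17), Khsrp (-0.31, SE 0.17) and Zfp36l2 (-0.27, SE 0.15), with limma adjusted p-values of 0.415, 0.440, 0.496 and 0.499. In these 6 lists 0 genes passed limma's adjusted threshold. With the arrays centred on their medians, 13 of 16 STAT3 response genes, 10 of 20 tumour necrosis factor signalling genes and 4 of 12 decay regulators were lower. In each of these lists 1 gene was then lower without overlap, and 2, 2 and 1 genes, in the same order, were higher without overlap.

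**Figure D5:**
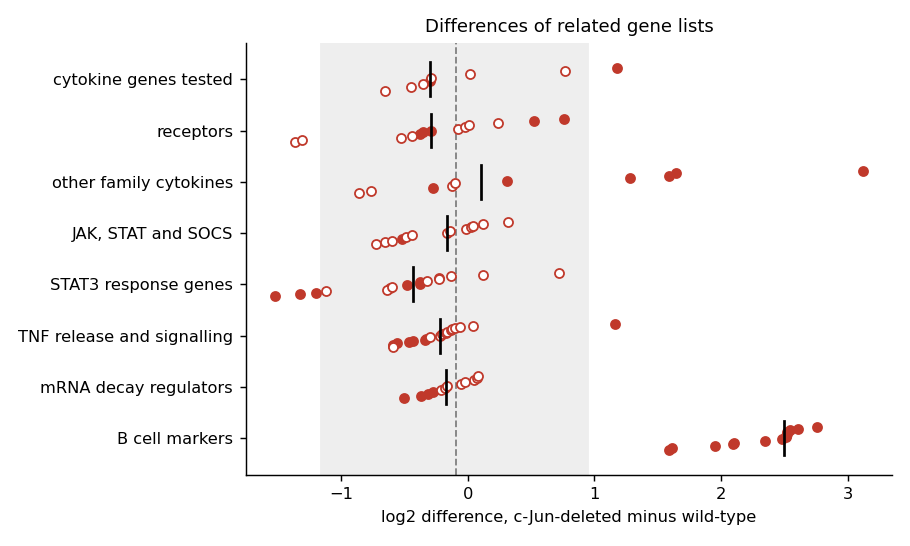
Log2 difference, c-Jun-deleted minus wild-type (x axis), of each tested gene in the cytokine group and in 7 lists (rows), filled where the groups do not overlap, with the median of each row as a black line. The shaded band runs from the 5% to the 95% quantile of all genes tested and the dashed line is their median, -0.09; the B cell markers lie at a median of 2.49, and the cytokine genes at -0.30.

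Markers of other cells of the peritoneal cavity were read on the same arrays. The counts below stand beside 61.4% lower and 38.6% higher over all genes, and 20.2% lower and 13.3% higher without overlap. Neutrophil markers (8 tested, 5 lower, 3 higher, 1 lower without overlap) had a summed signal of 17.9 and 11.5 in c-Jun-deleted macrophages 1 and 9, against 15.9, 15.3 and 19.4 in wild-type macrophages 5, 11 and 14. Most of that sum was S100a8; without it the sums were 4.71 and 5.61 in c-Jun-deleted and 6, 5.01 and 4.35 in wild-type macrophages. S100a9 was highest on c-Jun-deleted 9, at 0.20, against -4.14 on c-Jun-deleted 1 and -2.64, -2.61 and -4.37 in wild-type macrophages. Mast cell markers (8 tested, 8 higher, 0 without overlap) summed to 99.5 and 93.3 in c-Jun-deleted and to 122, 68.5 and 41.7 in wild-type macrophages. T and NK cell markers (12 tested, 7 higher and 5 lower, 2 higher and 1 lower without overlap) summed to 53.1 and 71.1 in c-Jun-deleted and to 21.4, 42.6 and 16.0 in wild-type macrophages. Without Cd2, the brightest of them, the sums overlapped, at 19.7 and 27.6 in c-Jun-deleted and 10.4, 32.7 and 10.3 in wild-type macrophages. Mesothelial and stromal markers (11 tested, 11 lower, 8 without overlap) summed to 4.40 and 4.68 in c-Jun-deleted and to 7.39, 14.6 and 11.9 in wild-type macrophages, and Lrrn4 was at background throughout. Monocyte and dendritic cell markers (8 tested, 5 lower, 3 without overlap) summed to 143 and 156 in c-Jun-deleted and to 164, 166 and 162 in wild-type macrophages, with Xcr1 at background throughout. Most of that sum was Siglech; without it the sums were 16.8 and 13.2 in c-Jun-deleted and 21.4, 38.8 and 26.8 in wild-type macrophages. The 12 macrophage markers (7 lower and 5 higher, 5 lower and 3 higher without overlap) summed to 695 and 971 in c-Jun-deleted and to 1160, 946 and 1300 in wild-type macrophages. The sums overlapped with Lyz2 and without it; without it they were 673 and 605 in c-Jun-deleted and 740, 513 and 720 in wild-type macrophages. Their part in the cytokine values was not tested.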

How the data were processed

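The authors deposited 1 scanner file per sample, and per the file headers Agilent Feature Extraction 11.5.1.1 wrote the spot intensity, background-subtracted and not scaled between arrays, on an array design built on mm9. The other deposited columns used are flags of 0 or 1 that mark each spot as saturated, outlying or clearly brighter than background. RNA was labelled from 50 ng with Cy3, per the labels' protocols. Of 62976 spots, 59305 were not controls. Log2 of the processed intensity minus log2 of the array's 75th percentile was used. Outlying spots were left out, and spots of a probe were averaged. A probe counted as well above background where at least 0.5 of its spots did, and 2 of 5 arrays were required. Transcript accessions named 28026 of 55681 probes through a RefSeq table (GRCm38.p6), and a gene was its brightest probe.

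The comparison of genotypes used R 4.3.3 with limma 3.58.1: a linear model per gene with moderated variance, 2-sided and adjusted by Benjamini-Hochberg over all 27938 genes at 0.05 and tested on simulated data. An exact permutation test cannot go below 0.1 here, and the number of arrays limits precision. Markers and pathway genes were named by size of difference among those well above background on 5 arrays without overlap, at most 4 per list. Members and lists were chosen with earlier results of these data known. Alternatives are background correction, scaling, filters, slide, array weights and single arrays left out. The authors' deposited group means were not used here. Values of 1 gene in the list of other cytokines are not reported here.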

Additional observations from a re-analysis of the deposited data

How the results depend on the processing

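Adjusted p-values of the 8 cytokine genes stayed above 0.05 in every alternative that tested them (slide 1, with 1 array a group, gave values only), the lowest being 0.202 for Il12a with median centring. Of all genes, 187 passed with median centring and 1 with array weights. The median difference of the cytokine genes was 0.13 within slide 1 and ranged from -0.43 to 0.18 with single arrays left out, being positive without c-Jun-deleted 9 and negative without each other array. Median centring moved the median of all genes to 0.12, and the cytokine median minus that of all genes was -0.20 both with it and without it. Among unadjusted calls 46.3% were higher as reported, 61.2% with normexp and quantile, 62.0% with quantile and 79.0% with median centring. The number of cytokine genes lower without overlap was 0 with median centring, 3 within slide 2 and from 1 to 3 with single arrays left out. Signs changed for Tnf within slide 1 (0.65), for Il6 within slide 1 (0.11) and for Csf3 within slide 1 (0.14), for Il10 within slide 2 (-0.11) and for Lif with quantile normalization (0.01). Osm was at -0.03 and -0.04 with the normexp settings, -0.04 with the slide as a block, -0.19 within slide 1 and -0.16 with array weights. With single arrays left out, Il6 ranged from -0.97 to 0.27, Csf3 from -1.62 to 0.31 and Osm from -0.23 to 0.16. Il12a stayed above 0 and Il27 below 0 in every setting that tested them. The difference of Cd247, a T cell marker, was -0.44 with the main settings, and 0.15 and 0.06 with the normexp settings. The cause of these shifts was not tested. Both normexp settings used median spot signals. The one with the 75th percentile was chosen after seeing the data, because the planned mean-signal version was not run, and with it Il12a overlapped between groups. Other probes and the authors' table gave no alternative value. No paired analysis was possible because the titles give the groups no shared replicate number.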
